A study of Sus scrofa with 36 samples.

Results

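The liver response to heat was followed in Large White (LW) pigs, a European breed selected for growth, across all genes of a pig microarray. The animals were taken by their labels, as the LW liver samples at either temperature, which gave 12 of the 36 livers of the series: 6 at thermoneutrality (TN, labelled 24 °C) and 6 under heat stress (HS). The label of the HS pigs gives 30 °C whereas the growth protocol gives 32 °C for 5 days, so only the names TN and HS are used. The other 24 livers came from 12 Creole (CR) pigs, a local Caribbean breed, and 12 F1 pigs of the LW by CR cross, each with 6 TN and 6 HS animals, and serve here only for comparison. All pigs were castrated growing males raised in Guadeloupe with free access to the same diet. Per the study's methods, TN pigs were killed before the room was warmed and HS pigs after it, so the effects of temperature, day of slaughter and a few days of added age cannot be told apart. Pigs of a breed were littermates in blocks of 4 and shared pens, but litter, pen and slaughter day are not in the labels, so every p-value treats the animals as independent.

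The liver makes most plasma proteins, sets blood glucose, synthesises fatty acids and bile acids, and stores iron, and its genes answer feeding, hormones and the time of day. Heat exposure lowers voluntary feed intake in pigs, which limits the heat produced by digestion and metabolism. In the cell, heat unfolds proteins, and heat shock transcription factors then induce chaperones such as HSPH1 that hold and refold them. Hepcidin (HAMP), a liver hormone that blocks iron release into plasma, is induced by iron load and by inflammation.

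Expression was read as the log2 signal of 60-base probes, on a scale where 1 unit is a doubling, and each gene is given by its brightest probe unless all its probes are mentioned. Levels of different probes are not comparable with each other, so only differences between animals are read. In the LW arrays 39644 to 44025 of 60306 spots were well above background, the median spot signal lay between 70.0 and 89.0 intensity units, and no spot was saturated. The tissue label was checked on 10 hepatocyte genes such as albumin and transthyretin, whose mean log2 signal lay between 16.93 and 17.10 in the 12 animals.

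LW TN replicates 1 and 6 stood apart from the other LW animals. On the first principal component of the 12 LW arrays, which held 17% of the variance, they scored 38.8 and 49.7, while the other 10 animals lay between -16.9 and 2.1. On the first component of all 36 arrays (18.6% of the variance) these 2 pigs lay at -4.8 and -3.0, outside the other LW pigs at -44.2 to -24.8 and within the F1 range of -21.3 to 36.9. Whether the labels of these 2 pigs are right could not be settled from the values, so the LW comparison rests on labels taken as given. Many values that rest on them are also given without them, and a value given only once was not shown to hold without them. Neither of the first components of the LW arrays separated HS from TN (exact permutation tests over 924 arrangements, two-sided, p = 0.346 and 0.669, both 0.669 after adjustment, smallest possible p 0.00216).

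**Figure D1:**
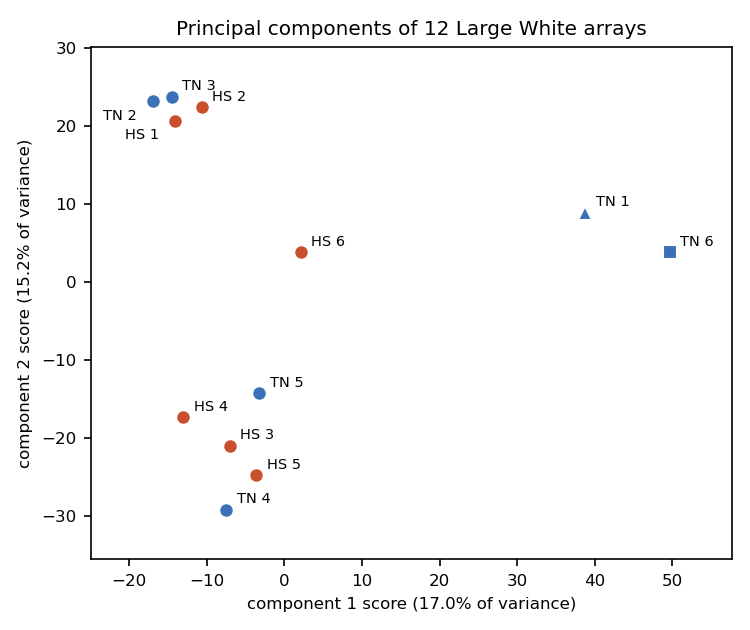
Scores of the 12 LW arrays on the first principal component (x axis, 17.0% of the variance) and the second (y axis, 15.2%), blue for TN and red for HS. TN 1 (triangle, 38.8) and TN 6 (square, 49.7) lie apart on the x axis, and HS and TN animals are mixed in the rest of the plane.

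The probes behind the results described first are shown by their opening bases, because a value on this array is the signal of 1 such sequence. Each line gives the first 30 of 60 bases, 5′ to 3′, as the array design lists them.
ADPRH: ggtaaatatgcagagggaattccttttggc
MGST3: attgttggacgagttctttatgcttatggc
HAMP: gtcaccccttatttattccggctgcctcca
SLC35F3: acgagccacctctgctggagatgctcccag
MLKL: acgtgttgaaactgaaaatgagtccctgaa
ESR1: ttcctgcacccccacggccaacaggtgccc
GARNL3: catcagtccccttgtaataaaggtggtaga
HSPA8: cacagggaaaggaaattacattgcacttta
KLF9: tgcaggtagatttagcacagtactcatcac
ELOVL2: gaaacacatagccttaaaccattcaagagc
Genes carried on several probes allow a check within the array. ADPRH had 7 kept probes of 6 distinct sequences, and KLF9 had 11 probes which fell into 8 sets when probes sharing a run of 20 bases were joined.

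Across 44796 probes, 0 (0%) passed the test of HS against TN in LW liver (limma, adjusted p under 0.05, smallest adjusted p 0.26), while 2289 probes (5.11%) had an unadjusted p under 0.05, of which 1303 were higher and 986 lower in HS. A share of 5.11% at that limit is close to the share of tests that would pass it with no difference anywhere. The median size of the difference between HS and TN was 0.08 log2 units, below the median standard error of a difference, 0.11. Differences of at least 1 log2 unit in either direction were seen for 46 probes in LW, against 70 in CR and 148 in F1. The spread between animals was not larger in LW than elsewhere, with a median SD of 0.18 in LW TN (0.15 without replicates 1 and 6) and 0.15 in LW HS, against 0.17 to 0.19 in the CR and F1 groups. The names that follow are therefore the leading differences of a comparison in which no probe passed the adjusted test, and where a count uses an unadjusted p under 0.05 it is read against its share among all genes. They are taken from genes with clear signal on 4 or more of 6 arrays of an LW group.

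By gene, 11448 brightest probes were read: 333 (2.91%) were higher in HS with an unadjusted p under 0.05 and 250 (2.18%) lower. The 6 HS and 6 TN values did not overlap for 36 genes higher in HS (0.314%) and for 16 lower (0.14%). The balance of higher to lower depended on the scaling of the arrays. At the same limit there were 987 higher and 1270 lower probes when the processed signal was scaled to its 75th percentile, and 1814 higher and 793 lower with median scaling, which moved the median of all probes by 0.02 log2 units. Without LW TN replicates 1 and 6, 784 were higher and 855 lower.

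ADPRH, which removes ADP-ribose from arginine residues of proteins, was higher in every HS pig than in any TN pig. Its log2 signal ran from 10.11 over a median of 10.18 to 10.44 in TN and from 10.47 over 10.69 to 10.83 in HS, a difference of 0.44 ± 0.11 (SE; limma, adjusted p = 0.547). All 7 of its probes were higher in HS, 6 of them with an unadjusted p under 0.05, the difference had the same sign on each of the 4 slides that held both groups, and without TN replicates 1 and 6 it was 0.41. In CR the same probe differed by 0.42 and in F1 by 0.39.

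MLKL, the pseudokinase that executes necroptosis, had the smallest p among the named genes lower in HS. It lay between 6.17 and 6.57 (median 6.28) in TN and between 5.30 and 5.98 (median 5.43) in HS, so the groups did not overlap, and only 2 of 6 HS arrays read it well above background against 6 of 6 TN arrays. It thus met the signal requirement through TN alone, and its differences, the breed test included, are between a measured level and signals largely at background. The difference was -0.78 ± 0.17 (SE; limma, adjusted p = 0.383), and -0.74 without TN replicates 1 and 6. In CR it was -0.00 and in F1 -0.02, and the test of the LW difference against the mean of both gave an unadjusted p = 0.000617 and an adjusted p of 0.949 (limma). At that limit 2166 of all probes (4.84%) differed between LW and the mean of CR and F1, and 0 after adjustment.

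SLC35F3, described as a thiamine transporter, was dim but had the smallest unadjusted p among the genes higher in HS. Signals were 5.39 to 6.34 in TN (median 5.51), where replicate 2 alone exceeded 5.61, and 6.27 to 7.02 in HS (median 6.50). HS exceeded TN by 0.92 ± 0.19 (SE; limma, adjusted p = 0.383), with -0.01 in CR and -0.10 in F1. ALPK3, a kinase of muscle, also had a single high TN value in replicate 2 (6.82, against 5.51 to 6.01 in the rest), and its difference was 0.77 ± 0.18 (SE). When LW TN replicate 2 was left out, both passed the adjusted test, with differences of 1.06 for SLC35F3 and 0.94 for ALPK3 (limma, adjusted p = 0.0343 for each), together with a probe on a cDNA without a gene symbol (1.26). That pig held the top TN value of both genes, so its removal had to widen their differences, and with any other single animal left out neither gene passed.

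Further genes with higher HS signals are given singly. MGST3, a membrane-bound glutathione transferase, had a median of 14.94 in HS, with no pig under 14.83, and of 14.42 in TN, with no pig over 14.89. All 5 of its probes were higher in HS with an unadjusted p under 0.05, and the difference of 0.50 ± 0.12 (SE) became 0.30 without TN replicates 1 and 6, which held the lowest values. In CR it was -0.12 and in F1 0.05. GSTA1, a soluble glutathione transferase, differed by 1.42 ± 0.60 (SE), but TN replicate 6 alone read 9.66 while the remaining 11 pigs read at least 15.42, and without TN replicates 1 and 6 the difference was 0.34. Clusterin (CLU), a chaperone secreted into plasma, was between 15.16 and 15.71 in TN and between 15.70 and 16.10 in HS, with a difference of 0.39 ± 0.10 (SE) in LW, with 0.16 for CR and 0.40 for F1. VTI1B, which fuses vesicles in the endosomal route, was higher on all 4 of its probes by 0.34 ± 0.09 (SE) for the brightest, and ATXN10 by 0.40 ± 0.10 (0.26 without TN replicates 1 and 6).

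Of the 20 genes with the most extreme test statistics, 8 had groups that did not overlap, against 0.314% higher and 0.14% lower among all genes. The 20 were chosen by these same values, so the count adds no support. Besides ADPRH, these were Fam116b (a DENN domain protein, 0.36) and POLI (a DNA polymerase that copies past lesions, 0.28) among the higher genes. Among the lower ones were MLKL, ESR1 (the oestrogen receptor alpha, -0.46), MRPS17 (a protein of the mitochondrial ribosome, -0.33), BCDIN3D (an RNA methyltransferase, -0.42) and LONRF3 (a RING finger protein, -0.69). The other BCDIN3D probe, of nearly the same brightness, gave -0.03. ESR1 read 8.15 to 8.82 in TN and 7.61 to 8.14 in HS. The brightest of its dimmer probes gave -0.16 and was well above background on 4 TN and 3 HS arrays. The rest of its probes were at background on most LW arrays, so their signs are not read. GARNL3, which carries a domain that acts on Rap proteins, was a further gene without overlap and had the largest negative difference among genes with an unadjusted p under 0.05. Its TN pigs read 11.30 to 12.45 (median 11.56) and its HS pigs 9.68 to 11.24 (median 10.83), a difference of -1.13 ± 0.51 (SE), with -0.70 in CR and -0.34 in F1. GADD45G, a stress gene linked to growth arrest, gave -0.92, against 0.24 for CR and -0.60 for F1.

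**Figure D2:**
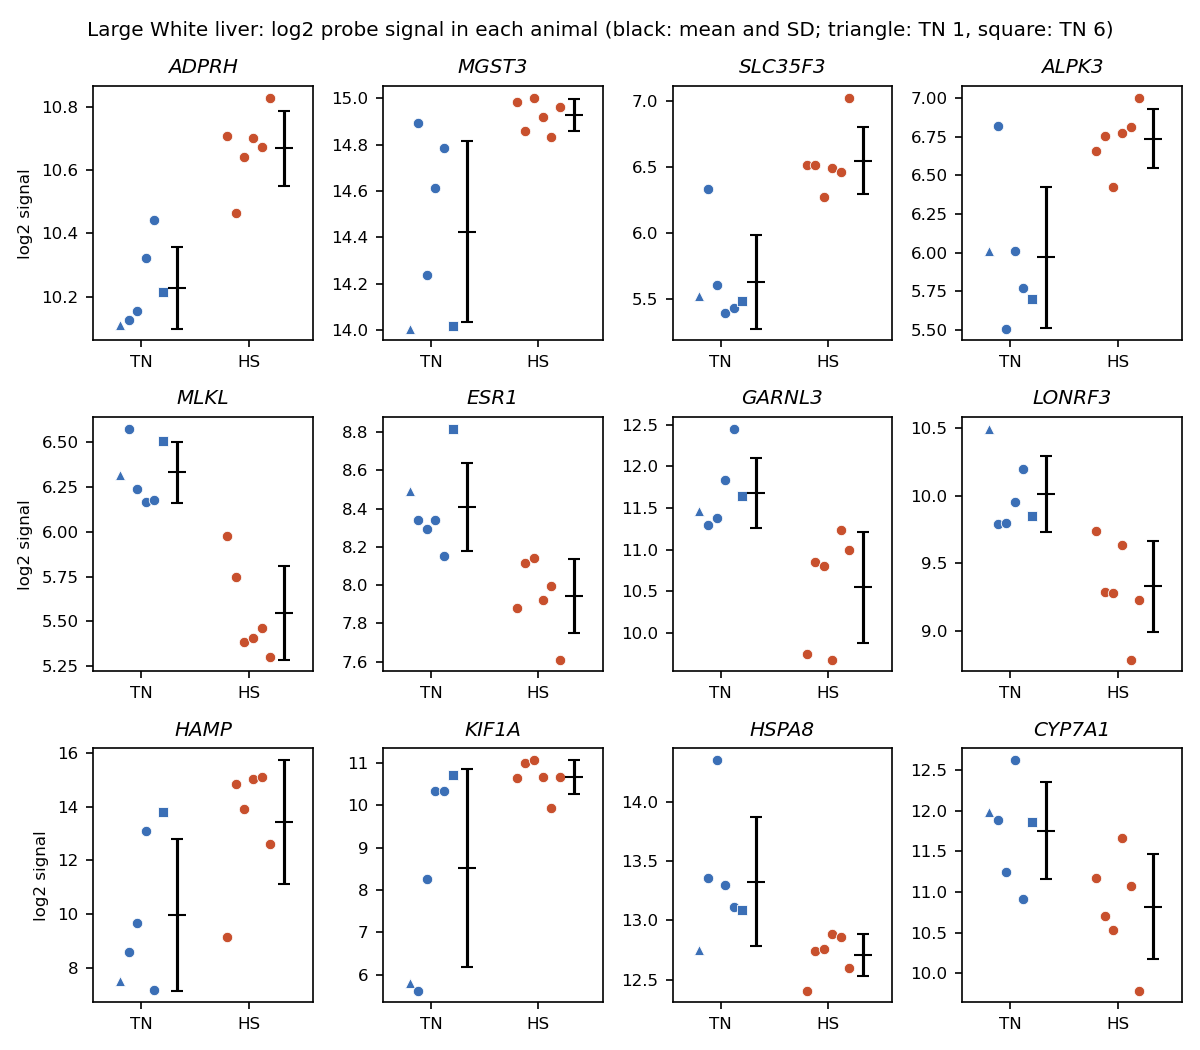
Log2 probe signal (y axis, its range set per gene) of 12 genes in each TN (blue) and HS (red) LW pig, with the mean and SD of 6 animals as a black bar beside the points. Triangles mark TN replicate 1 and squares TN replicate 6; ADPRH, MLKL, ESR1, GARNL3 and LONRF3 do not overlap between the groups, whereas HAMP and KIF1A spread widely within TN.

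The largest differences came from genes that varied strongly among TN pigs. HAMP was between 7.20 and 13.79 in TN (median 9.14) and between 9.16 and 15.11 in HS (median 14.37), so that 2 TN pigs lay within the range of 5 HS pigs and 1 HS pig lay among the low TN pigs. The difference was 3.46 ± 1.49 (SE; limma, adjusted p = 0.953), its other probe gave 3.51, and without TN replicates 1 and 6 it was 3.8. Within slides HS minus TN was -0.50, 1.30, 7.87 and -1.19, that is, of either sign. CR and F1 showed 3.18 and 4.47. KIF1A, a motor protein of nerve axons, read 5.81 and 5.62 in TN replicates 1 and 2 and 8.25 in replicate 3, against 9.95 to 11.08 in HS and 10.35 to 10.72 in the other TN pigs, with a difference of 2.15 ± 1.01 (SE). PUSL1, an enzyme resembling pseudouridine synthases, lay between 8.68 and 9.98 in TN and between 9.97 and 11.03 in HS, a difference of 1.17 ± 0.39 (SE) against -0.02 in CR and 0.05 in F1. S100A2, a calcium-binding protein, differed by 1.22 and the imprinted non-coding RNA H19 by 1.02, and without TN replicates 1 and 6 they gave 0.99 and 0.76. H19 read 10.04 in HS replicate 5, without which its difference was 0.60, and it was -1.33 on the slide holding TN replicate 4.

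From a list of 45 heat shock proteins and their helpers 39 genes were measured, and HSPA1A, an HSP70 gene, was not among them. Of these 0 passed the adjusted test, 4 had an unadjusted p under 0.05, all lower in HS (background 2.18%), and 0 were higher at that limit. The list median was -0.02, against -0.00 for all genes. HSPA8, the constitutive HSP70 that folds new proteins and uncoats vesicles, read 12.75 to 14.36 in TN (median 13.21) and 12.41 to 12.88 in HS (median 12.75). LW gave -0.62 ± 0.25 (SE), CR -0.78 and F1 -0.65, and the value was -0.83 in LW without TN replicates 1 and 6. HSPH1, the nucleotide exchange factor that recycles HSP70, was at 8.26 to 9.58 in TN and 8.02 to 8.31 in HS, with -0.51 ± 0.18 (SE), and TN replicate 3 held the top value of both genes. Without that pig HSPH1 gave -0.33 and HSPA8 -0.42. CHORDC1, a partner of HSP90, gave -0.35 ± 0.14 (SE). FKBP4, the HSP90 co-chaperone of steroid receptors, gave -0.23 in LW, -0.03 in CR and 0.23 in F1 on its brightest probe. Its dimmer probes, which also had clear signal, gave -0.04 and -0.01 in LW. BAG3, which couples HSP70 to autophagy, differed by -0.26 ± 0.28 (SE) in LW, against -0.71 in CR and -0.95 in F1, and HS replicate 5 held the highest value of the 12 LW pigs.

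Fatty acid synthesis genes leaned lower in HS. Of 25 measured genes 19 had a negative difference (18 without TN replicates 1 and 6), against 5897 of all 11448 genes. After adjustment 0 passed, and 4 were lower with an unadjusted p under 0.05 (background 2.18%). Without TN replicates 1 and 6 the number at that limit was 1. The median was -0.17 (all genes -0.00), and -0.11 without those pigs. CR and F1 medians were -0.14 and -0.13. The 4 were ACSS2, which makes acetyl-CoA from acetate (-0.49 ± 0.22, SE), ELOVL6, which lengthens saturated chains (-0.78 ± 0.36), FADS2, the first desaturase of polyunsaturated fatty acids (-0.37 ± 0.17), and ELOVL1, which makes very long chains (-0.27 ± 0.13). ELOVL6 was between 10.64 and 12.81 in TN and between 9.60 and 11.80 in HS, and without TN replicates 1 and 6 its difference was -0.38. By slide it was 1.11, -1.24, 0.05 and -1.39, of either sign. The central enzymes ACACA and FASN gave -0.45 and -0.39, neither with an unadjusted p under 0.05, and -0.14 and -0.06 without those 2 pigs. MFSD2A, a carrier of lysophospholipids, spread from 7.95 to 10.52 in TN and from 5.29 to 9.48 in HS, with -1.59 ± 0.90 (SE). Of neighbouring pathways, GPD1, which makes glycerol phosphate, gave -0.30 ± 0.12 (SE) with all 5 probes negative, and 14 of 20 cholesterol genes were negative with 0 at an unadjusted p under 0.05.

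Bile acid, steroid and hormone genes followed. CYP7A1, the rate-limiting enzyme of bile acid synthesis, was at 10.92 to 12.63 in TN (median 11.88) and 9.79 to 11.67 in HS (median 10.89). The difference was -0.93 ± 0.42 (SE), with -0.53 in CR and -0.80 in F1. By slide the LW difference was -0.08, -2.01, 0.45 and -2.08, of either sign. CYP3A46 and CYP3A29, drug and steroid hydroxylases, were higher by 0.40 and 0.36 (0.46 and 0.23 without TN replicates 1 and 6). The 14 genes of glucocorticoid action had a median of -0.23, which was -0.11 with slide as a block and -0.12 with the values the authors deposited. Of them IGFBP1, a binding protein of insulin-like growth factors that fasting raises, was the 1 lower with an unadjusted p under 0.05 (-0.69 ± 0.32, SE; background 2.18%). IGFBP2, another such binding protein, was higher on all 4 probes (0.47 ± 0.16, SE) in LW, with 0.48 in CR and -0.41 in F1. SERPINA7, the thyroxine carrier of plasma, was 0.32 ± 0.13 (SE) higher on the brighter of 2 probes, and 0.19 without TN replicates 1 and 6.

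Immune gene lists differed among themselves. Interferon-stimulated genes were negative in 26 of 31, against 5897 of all 11448 genes, and in 16 of 31 without TN replicates 1 and 6. Their median was -0.14, and -0.02 without those pigs, and 1 of the 31 was lower with an unadjusted p under 0.05 (background 2.18%). That gene, STAT2, which relays the interferon signal, gave -0.31 ± 0.12 (SE), and -0.10 without those pigs. Its 6 probes ran from -0.31 to 0.14, of either sign. All 9 MHC class II genes were negative (median -0.08, -0.23 without TN replicates 1 and 6, and 0.00 with the values the authors deposited), with 0 at an unadjusted p under 0.05. On the interferon list TN replicate 1 had a mean level of 10.47, near the TN median of 10.48, and TN replicate 6 the highest, 11.12. Both pigs read low on macrophage and endothelial markers. Their mean signals of 9 macrophage markers were 11.10 and 11.19, against a TN median of 11.62 and 11.34 to 11.68 in HS. For 8 endothelial markers they were 9.85 and 9.58, against 9.95 to 10.11 in HS. The 4 neutrophil markers were all negative, S100A8 the most at -0.43 (-0.75 without TN replicates 1 and 6), with their mean level at 6.91 to 8.55 in TN and 7.11 to 7.74 in HS. The macrophage list itself had a median of 0.00 (-0.19 without those 2 pigs) and the 9 T and NK cell genes of 0.02 (-0.28). The other marker lists had medians of -0.11 (B and plasma cells, 4 genes), -0.00 (stellate cells, 9), 0.07 (endothelium, 8), 0.27 (bile duct, 5), 0.02 (red blood cells, 4), 0.02 (adipocytes, 3) and 0.03 (hepatocytes, 10). Without TN replicates 1 and 6 the medians were -0.09 for endothelium, -0.05 for red blood cells, 0.08 for adipocytes and -0.02 for stellate cells. In bulk liver, fewer cells of a type and less RNA per cell cannot be told apart, and the part of cell content in the immune results was not tested.

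Remaining lists had medians between -0.08 and 0.03, and their counts at an unadjusted p under 0.05 stand beside 2.91% higher and 2.18% lower among all genes: endoplasmic reticulum stress (26 genes, 0 with an unadjusted p under 0.05), glucose and glycerol metabolism (26, 1 lower), antioxidant enzymes (32, 1 lower), iron handling (22, 3 higher), acute phase proteins (26, 1 higher and 1 lower), urea cycle and amino acid catabolism (29, 2 lower), cytochrome P450 (23, 2 higher and 1 lower), thyroid hormone genes (14, 1 higher) and the growth hormone axis (19, 3 higher and 1 lower). Without TN replicates 1 and 6 the urea cycle median moved from -0.08 to -0.01. Named members were GPX4, which protects membranes from lipid peroxides (-0.21), GCAT, an enzyme of threonine breakdown (-0.33), OTC of the urea cycle (-0.26), the ferritin light chain FTL (0.16), the TGF-beta inhibitor SMAD7 (0.31, and 0.20 without TN replicates 1 and 6), STAT5B, which transmits growth hormone signals (0.24), CISH, its feedback inhibitor (0.49, and as low as 0.30 when 1 animal was left out), and RBP4, the retinol carrier (0.15, and as low as 0.09 when 1 animal was left out). Dimmer probes did not all share these signs: FTL had a probe at -0.12, STAT5B at -0.005 and GPX4 at 0.01. LCN2, an iron-scavenging acute phase protein, gave -0.49, but TN replicate 4 alone read 7.52 with the next TN pig at 6.24. Without that pig the difference was -0.21, and without TN replicates 1 and 6 it was -0.78.

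**Figure D3:**
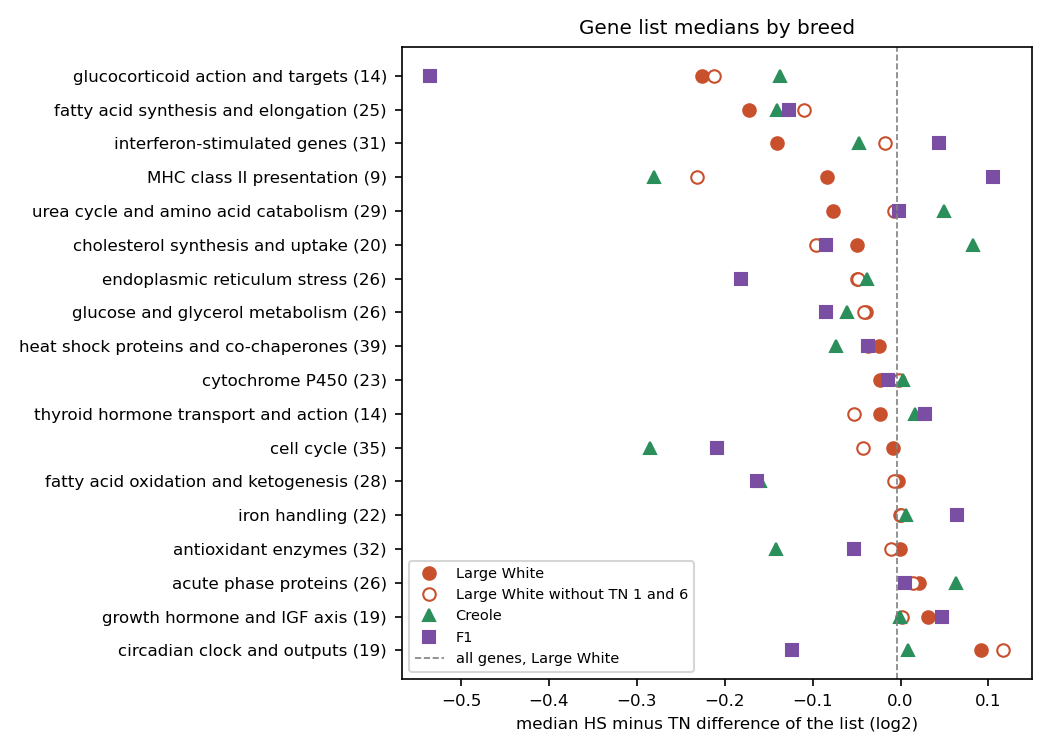
Median HS minus TN difference (x axis, log2) of the 18 gene lists (y axis, number of measured genes in brackets) in LW (filled red), LW without TN replicates 1 and 6 (open red), CR (green triangles) and F1 (purple squares); the dashed line is the median of all genes in LW. In LW the cell cycle list sits at -0.01, whereas CR and F1 sit at -0.29 and -0.21.

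Cell cycle genes, which drive DNA replication and division, showed almost no shift in LW. Of 35 measured genes 20 were negative and 15 positive, with a median of -0.01 (-0.04 without TN replicates 1 and 6), 0 lower and 1 higher with an unadjusted p under 0.05. In CR 21 of the 35 were lower with an unadjusted p under 0.05 (background 4.69%) and in F1 8 were (background 5.08%), with medians of -0.29 and -0.21. The difference between the LW and the CR response had an unadjusted p under 0.05 for 17 of the 35, all of them more negative in CR (background 2.65%), and for 13 of them without LW TN replicates 1 and 6, while 0 passed after adjustment (limma, smallest adjusted p over all probes 0.978). These genes move together from animal to animal, so the 17 are not independent findings.

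Against F1 the LW response differed at that limit for 2 of the 35, both more negative in F1 (background 2.18%). Single genes, chosen after their values were seen, show the size of the contrast with CR; for none of the next 3 did the test of LW against F1 have an unadjusted p under 0.05. Cyclin B1 (CCNB1), which starts mitosis, was 7.78 ± 0.31 in LW TN and 7.75 ± 0.34 in LW HS (SD, n = 6 each). HS minus TN came to -0.03 in LW, while CR gave -1.17 and F1 -0.43. CDK1, the kinase it activates, gave -0.09, -1.03 and -0.55 in the same order, and RRM2, a subunit of the enzyme that makes deoxynucleotides, gave -0.12, -1.09 and -0.44. MKI67, the Ki-67 protein of dividing cells, ran the other way, with -0.16 in LW and 0.24 in CR. AURKB, the mitotic kinase of the chromosomal passenger complex, was the exception in LW, higher by 0.30 ± 0.10 (SE) on its brightest probe. The rest of its 3 probes did not share this rise, at -0.01 and 0.004. Averaged over the 35 genes, the level was 7.56 to 7.80 in LW TN and 7.49 to 7.78 in LW HS, so the groups overlapped almost fully. CR TN pigs lay between 7.65 and 8.11 and CR HS pigs between 7.18 and 7.79.

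**Figure D4:**
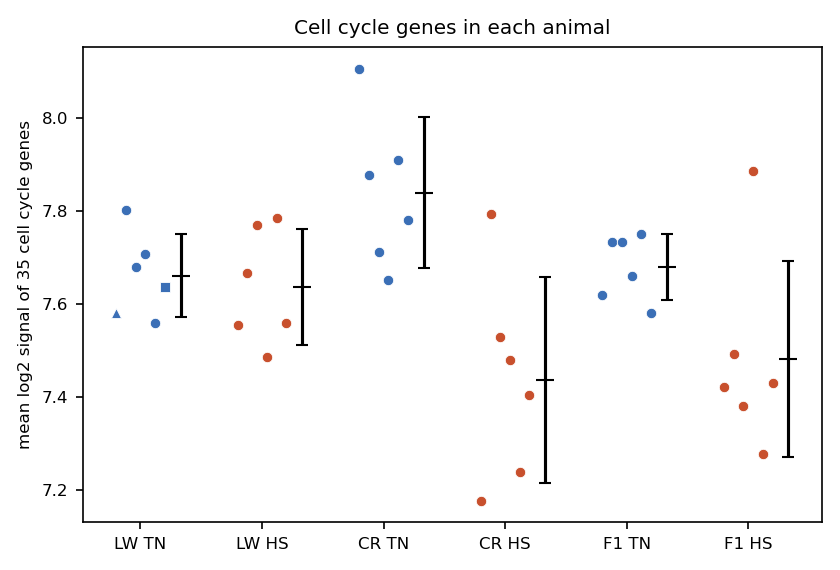
Mean log2 signal of 35 cell cycle genes (y axis) in each animal of the 6 groups (x axis), blue for TN and red for HS, with the mean and SD of 6 animals in black; the triangle and square are LW TN replicates 1 and 6. LW TN and LW HS cover nearly the same range, while 5 of 6 CR HS animals lie below every CR TN animal.

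Clock genes, whose levels cycle over the day, differed in direction between breeds. The labels give no time of slaughter. In LW 2 of 19 were higher (background 2.91%) and 1 lower (background 2.18%) with an unadjusted p under 0.05, and the list median was 0.09. In LW the repressor CRY1 was at 7.85 to 9.19 in TN and 7.18 to 8.54 in HS, a difference of -0.56 ± 0.25 (SE), against 0.45 in CR and 0.38 in F1. ARNTL (BMAL1), the activator of the clock, gave -0.44 in LW and 0.37 in both others. NR1D1 and NR1D2, the REV-ERB receptors that repress ARNTL, gave 0.60 and 0.39 in LW, -0.08 and -0.19 in CR, and -0.32 and -0.30 in F1. BHLHE41, another repressor, was 0.42 ± 0.17 (SE) in LW, but -0.07 on its other probe, which also had clear signal. The LW response differed from the mean of CR and F1 with an unadjusted p under 0.05 for 6 of the 19 clock genes (CRY1, ARNTL, NR1D2, BHLHE41, NR1D1 and KLF9; background 5.08%), and for 0 after adjustment (limma, adjusted p = 0.949 for each of the 6). Without TN replicates 1 and 6 the LW values of the first 5 kept their sign, at -0.56, -0.37, 0.35, 0.22 and 0.64.

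Fat oxidation genes gave a further list in which LW stayed at the median of all genes (-0.00 in 28 genes) while CR and F1 lay at -0.16 and -0.16. HADHA, a subunit of the mitochondrial trifunctional enzyme, was 0.15 ± 0.11 (SE) in LW (0.07 without TN replicates 1 and 6), with -0.26 for CR and -0.47 for F1, with an unadjusted p = 0.000814 for LW against their mean (limma, adjusted p = 0.949). CPT1A, the gate of fatty acids into mitochondria, gave 0.02, -0.58 and -1.46 in the same order. Both were chosen after their values were seen. EHHADH, the peroxisomal bifunctional enzyme, was the 1 member with an unadjusted p under 0.05 in LW (background 2.18%) and ran the other way. It gave -0.34 ± 0.14 (SE) against -0.10 in CR and -0.01 in F1, and -0.19 without TN replicates 1 and 6. Its other probe, of nearly the same brightness, gave -0.15 in LW and did not pass that limit.

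To see whether LW pigs shared the response of the others, probes were chosen in CR and F1 alone and then read in LW, which shares no animals with the choice. In the 24 CR and F1 arrays 128 of 44723 probes (0.286%) passed (limma, adjusted p under 0.05), 35 higher and 93 lower in HS. In the 12 LW arrays 110 of the 128 (85.9%) had the same sign, against 54.5% of all probes, and 21 (16.4%) had the same sign with an unadjusted p under 0.05, against 4.13% of all probes; 0 had the opposite sign at that limit. The LW medians were 0.13 for the probes higher in CR and F1 and -0.13 for those lower, while the CR and F1 values that chose them had medians of 0.41 and -0.50. Without LW TN replicates 1 and 6, 117 probes had the same sign. Leaving out single LW animals gave 99 (without TN replicate 2) to 117. The 128 probes are no independent sample, since 85 of them carry only 60 gene symbols, with 10 probes of KLF9 and 8 of ELOVL2.

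Single genes of that set and others named earlier are given next. KLF9, a transcription factor induced by glucocorticoids and thyroid hormone, was negative on all 11 of its probes in LW, 3 of them with an unadjusted p under 0.05. On the brightest probe TN pigs read 12.16 to 12.71 and HS pigs 11.62 to 12.87, HS replicate 5 being the highest of all. The difference was -0.31 ± 0.18 (SE) in LW, from -0.46 to -0.21 when single animals were left out, against -0.75 in CR and -0.82 in F1. ZSCAN29, a zinc finger protein, gave 0.34 ± 0.10 (SE; TN 6.48 to 6.94, HS 6.80 to 7.19) against 0.38 in CR and 0.42 in F1. USP2, a deubiquitinase under clock control, gave -0.53 ± 0.28 (SE), against -1.03 and -1.32, but -0.31 without TN replicates 1 and 6. Within slides it was 0.24, -0.79, 0.04 and -1.49, of either sign. GCAT and FADS2 also kept their sign in all 3 breeds, and THRA, the thyroid hormone receptor alpha, gave 0.22, 0.56 and 0.41 and ANXA2, a membrane-binding annexin, 0.26, 0.28 and 0.74.

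ELOVL2, which lengthens polyunsaturated fatty acids, had a smaller value in LW than in both others. All 8 of its probes were chosen by their CR and F1 differences, so a smaller LW value is partly built in. LW pigs read 6.64 to 9.92 in TN (median 8.19) and 6.23 to 8.82 in HS (median 7.96), overlapping almost fully, with a difference of -0.48 ± 0.51 (SE), against -1.96 for CR and -1.73 for F1. The test of the LW response against their mean gave an unadjusted p = 0.0367 and an adjusted p = 0.949 (limma). Without LW TN replicates 1 and 6 the LW value was -1.04. Leaving out single LW animals moved it between -0.80 and -0.14. DOK2, an adaptor protein of immune receptors, had -0.02 in LW, 0.43 in CR and 1.19 in F1 (unadjusted p = 0.000295 for LW against their mean, adjusted p = 0.949, limma). It is among the 5 genes with the smallest p in that test, with MLKL, SLC35F3, the RNA acetyltransferase NAT10 (-0.32 in LW, 0.26 in CR and 0.06 in F1) and the selenoprotein SEPW1 (0.28, -0.35 and -0.09).

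**Figure D5:**
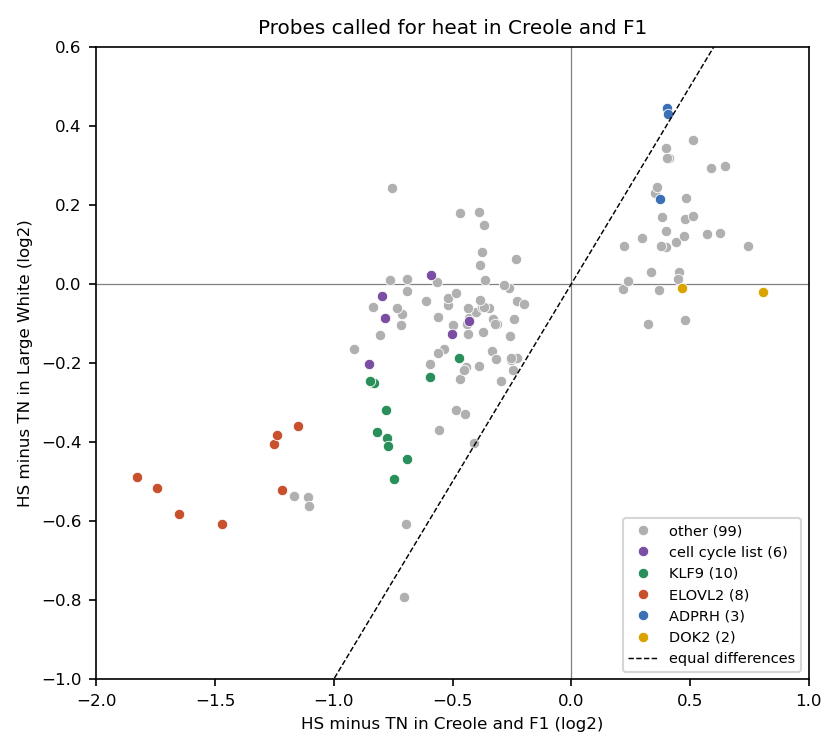
HS minus TN difference (log2) of the 128 probes called for heat in CR and F1, with CR and F1 on the x axis and LW on the y axis; colours mark KLF9, ELOVL2, ADPRH, DOK2 and cell cycle genes, and the dashed line marks equal differences. Most points share their sign (110 of 128), ADPRH lies near the line, and ELOVL2, KLF9 and the cell cycle genes lie well inside it.

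The reverse reading started from the 200 probes with the smallest p in the 12 LW arrays alone, 113 higher and 87 lower. In CR 136 of them had the same sign, against 52.8% of all probes, and in F1 155, against 55.0%. Their median difference in the LW direction was 0.39 in LW, where it chose them, 0.10 in CR and 0.12 in F1. Without LW TN replicates 1 and 6, 154 of the 200 probes then leading had the same sign in CR, against 58.9% of all probes. In F1 160 did, against 56.3%.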

How the data were processed

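Liver RNA was hybridised to 1-colour porcine 60-base microarrays, with 1 array per pig. The authors deposited scanner intensity values (Agilent Feature Extraction 10.10.1.1) and a log2 table of quantile-normalised values centred per probe. The study's methods use limma-based models with random effects for litter, pen and slaughter, which the labels do not give. Here the deposited median spot intensity was turned into log2 and quantile normalised. The filter asked for signal well above background on 6 or more of the 36 arrays and left 44796 of 60305 probes, and 107 non-uniform spots were set missing. HS and TN were compared by limma 3.58.1 in R 4.3.3 with 6 groups (30 residual degrees of freedom) and Benjamini-Hochberg adjustment over all kept probes, after a test on simulated data. Gene names came from the transcript accession for 9565 probes, the gene number for 1778, a current symbol for 14398, an older one for 197 and the file itself for 1308, which left 33059 unnamed. No genome build was used, so positions are not given. Replicate numbers follow accession order and pair nothing.

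Members and gene lists were chosen with earlier results of these data known. Named genes were the 10 highest and 10 lowest test statistics, the 6 largest differences each way at an unadjusted p under 0.05, in each list the 2 members with the smallest p and every member with p under 0.05, 15 genes named by earlier results, and the 5 smallest p for LW against CR and F1. FASN, ACACA, CCNB1, CDK1, RRM2, ARNTL, NR1D1, NR1D2, HADHA, CPT1A and S100A8 were added after their values were seen. Alternatives changed the signal, background correction, scaling, filter, slide term, array weights, variance prior and probe choice, or left out animals or slides. The number of arrays limits the precision.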

Additional observations from a re-analysis of the deposited data

Results flagged for a closer look

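Of 220 group values examined, 7 (3.18%) had 1 animal separated from the rest of its group by more than 0.625 of the group's range, where chance gives about 5%. These are values, and no cause was tested. BAG3 read 12.87 in LW HS replicate 5, with 11.69 the next highest. CSNK1E, a kinase of clock proteins, read 8.76 in LW HS replicate 6, with 8.20 next. GSTA1 read 9.66 in LW TN replicate 6, where the next lowest TN pig had 15.42. HSPH1 read 9.58 in LW TN replicate 3, with 8.71 next. SLA-DOB, an MHC class II chain, read 6.85 in LW TN replicate 4, with 6.31 next. SLC35F3 was separated in both groups, with 6.34 in LW TN replicate 2 against 5.61 and 7.02 in LW HS replicate 6 against 6.51.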

How the results depend on the processing

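No paired analysis was possible because the labels carry no replicate numbers. Leaving out 1 LW animal at a time gave 0 to 3 probes at an adjusted p under 0.05 (limma), with 3 without LW TN replicate 2 and 1 without LW TN replicate 5, and 1689 to 2714 at an unadjusted p under 0.05. One value per gene gave 582 at that limit, and 511, 501 and 551 for LW against CR, F1 and their mean. Without LW TN replicates 1 and 6 together, LW against CR gave 1200 and LW against the mean 1279. For LW against F1, 1180 were counted without slide 4, and without slide 5 DOK2 alone passed the adjusted test (1 probe, -1.50, adjusted p = 0.031). The probes chosen in CR and F1 with the same sign in LW numbered 64 of 71 chosen with the processed signal and 65 of 74 with no filter on dim probes, and 99 to 117 when single animals were left out. The top 50 LW probes gave 33 and the top 1000 gave 504 with the same sign in both others. DOK2, near 0 in LW, changed sign with the authors' values (0.071), median scaling (0.032), one value per gene (0.007) and without slide 4 (0.083), and ran from -0.101 to 0.04 when single LW animals were left out. The other 79 of 80 named genes kept their sign in all alternatives run, and 25 of the 61 at an unadjusted p under 0.05 stayed there in each. For each of them the cause was not tested. Slides shared little variation (consensus correlation 0.0332).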

Other observations

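The probe with the smallest p in LW lies on a cDNA without a gene symbol. It read 4.98 to 6.84 in TN (median 6.03) and 6.75 to 7.77 in HS (median 7.03), well above background on 3 of 6 TN and 6 of 6 HS arrays. It met the signal requirement through HS, so the value compares a measured level with signals partly at background. The difference was 1.11 ± 0.21 (SE; limma, adjusted p = 0.26), and 0.68 without TN replicates 1 and 6, against -0.14 in CR and -0.05 in F1.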
